A study of Mus musculus with 3 samples.

Results

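Splicing factor and heterogeneous nuclear ribonucleoprotein (hnRNP) genes were examined in wild-type C57BL/6J thymocytes at the stage that lacks CD4 and CD8, by chromatin immunoprecipitation of H3K27ac, the acetylated lysine 27 of histone H3 that is found at active promoters and enhancers. The genes are the protein-coding RefSeq genes of the mouse build mm10 (GRCm38.p6) whose symbols begin with Srsf, Hnrnp, Snrp, Sf3a or Sf3b. They number 53 of 21887 protein-coding genes, with 11 Srsf, 21 Hnrnp, 12 Snrp, 3 Sf3a and 6 Sf3b genes. The rule uses symbols and no measured value, but it was set with earlier results of these data known.

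The samples are 2 H3K27ac replicates of double-negative cells (CD25+CD44-/+) sorted from the thymus of mice 5 to 7 weeks old, with no transgene or deletion in the label. Chromatin was captured with an antibody against histone H3 before the H3K27ac antibody was added. The labels also give 1 input sample, which was not analysed here, so the values have no measured background. Whether the replicates came from separate or pooled animals is not given in the sources used here, so their spread may be technical. With 1 group and no second condition, the values below are descriptions and carry no p-value.

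Removal of introns from transcripts is carried out by the spliceosome, an assembly of small nuclear RNAs and proteins. Snrp genes encode proteins of these particles, and Sf3a and Sf3b genes encode the parts of the U2 particle that hold the branch site. SR proteins, encoded by Srsf genes, bind exons and promote their inclusion, while hnRNP proteins coat nascent transcripts and often oppose it. In T cells such factors shape the isoforms of surface proteins, among them CD45, the phosphatase encoded by Ptprc.

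The promoters of 6 genes are shown first, since they set the members with the most bp covered by peaks beside members with no peak at an annotated gene end. They come from RefSeq (GRCm38.p6), run 5′ to 3′ from 250 bases before to 50 after an annotated start, and are those of the outermost start listed for each gene. Capitals mark matches on either strand to 6 short words. These are TATAAA of the TATA box, then CCAAT of the box of that name, the GC box word GGGCGG, the core of many Ets sites, written as CCGGAA, the Runx core, written as TGTGGT, and part of the YY1 site, written as AAGATGG. No searched word contains another, though matches can overlap. The first 3 belong to the members with the greatest covered length, Srsf10 (chr4:135855821-135856120, plus strand), Hnrnpu (chr1:178337766-178338065, minus strand) and Hnrnpl (chr7:28810640-28810939, plus strand).
Srsf10: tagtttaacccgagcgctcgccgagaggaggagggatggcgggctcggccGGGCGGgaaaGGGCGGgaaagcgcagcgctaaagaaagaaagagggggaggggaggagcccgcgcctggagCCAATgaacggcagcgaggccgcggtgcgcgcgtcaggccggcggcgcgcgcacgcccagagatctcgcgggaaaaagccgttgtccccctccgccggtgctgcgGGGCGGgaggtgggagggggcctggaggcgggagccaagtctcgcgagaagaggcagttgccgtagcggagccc
Hnrnpu: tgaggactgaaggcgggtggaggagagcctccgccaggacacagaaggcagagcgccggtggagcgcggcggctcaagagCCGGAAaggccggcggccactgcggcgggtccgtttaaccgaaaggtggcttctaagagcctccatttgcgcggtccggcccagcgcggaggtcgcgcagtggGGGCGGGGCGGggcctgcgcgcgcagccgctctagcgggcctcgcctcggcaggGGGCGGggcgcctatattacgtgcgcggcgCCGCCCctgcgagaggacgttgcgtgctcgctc
Hnrnpl: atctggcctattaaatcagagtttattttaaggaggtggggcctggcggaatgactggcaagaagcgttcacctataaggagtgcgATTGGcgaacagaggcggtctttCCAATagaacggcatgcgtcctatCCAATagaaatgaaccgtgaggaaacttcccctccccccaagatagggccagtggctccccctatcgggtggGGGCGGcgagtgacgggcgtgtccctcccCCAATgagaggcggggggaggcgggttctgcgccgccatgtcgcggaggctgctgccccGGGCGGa
The other 3 belong to Hnrnpa1l2-ps2 (chr15:22714935-22715234, minus strand), Hnrnph1 (chr11:50376740-50377039, plus strand) and Hnrnpul1 (chr7:25754710-25755009, minus strand), the first members by symbol that lack a gene-end peak.
Hnrnpa1l2-ps2: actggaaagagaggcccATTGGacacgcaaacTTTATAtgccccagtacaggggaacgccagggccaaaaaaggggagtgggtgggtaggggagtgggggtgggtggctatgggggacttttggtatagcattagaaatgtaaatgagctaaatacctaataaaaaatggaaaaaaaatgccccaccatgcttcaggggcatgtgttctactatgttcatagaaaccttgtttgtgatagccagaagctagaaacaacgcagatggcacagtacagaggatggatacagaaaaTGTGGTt
Hnrnph1: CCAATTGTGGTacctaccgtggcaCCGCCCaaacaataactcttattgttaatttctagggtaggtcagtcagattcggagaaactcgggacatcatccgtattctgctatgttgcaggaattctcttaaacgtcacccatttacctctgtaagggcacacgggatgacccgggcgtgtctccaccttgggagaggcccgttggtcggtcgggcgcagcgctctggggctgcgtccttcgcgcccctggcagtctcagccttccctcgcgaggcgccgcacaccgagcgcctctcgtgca
Hnrnpul1: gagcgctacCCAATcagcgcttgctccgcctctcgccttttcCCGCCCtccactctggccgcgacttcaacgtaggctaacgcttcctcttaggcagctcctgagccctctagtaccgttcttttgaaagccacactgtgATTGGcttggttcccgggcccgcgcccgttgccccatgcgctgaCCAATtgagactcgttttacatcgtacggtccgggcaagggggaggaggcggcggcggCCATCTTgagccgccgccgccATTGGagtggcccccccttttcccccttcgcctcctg
The CpG dinucleotide occurred 38 times in the Srsf10 sequence, 41 times in that of Hnrnpu and 21 times in that of Hnrnpl. It occurred 3 times in Hnrnpa1l2-ps2, 24 times in Hnrnph1 and 26 times in Hnrnpul1. Among these 6, only Hnrnpa1l2-ps2 was poor in CpG. The Hnrnpul1 window overlaps a region with peaks of both replicates, described with its family, although that region is over 1 kb from the annotated gene end. At Hnrnph1, peaks begin just past the window, at position 50377050 in replicate 1 and 50377188 in replicate 2, also over 1 kb from the gene end. Both promoters thus lack a peak only by the gene-end rule.

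The peak lists held 12377 peaks in replicate 1 and 9477 in replicate 2, with −log10 q medians of 0.842 and 1.12. The files hold no read counts, so depth is unknown. Of 14 marker genes of T cell precursors, 5 (35.7%) had a gene-end peak in both replicates, against 16.8% of all protein-coding genes. They were Tcf7, Dntt and the neighbouring Cd3d, Cd3e and Cd3g. Within 1 kb of the gene end the replicates shared 32 bp at Cd3e and 0 bp at Cd3g. Il2ra, the gene of the CD25 used in the sort, had one in replicate 2 alone, and Rag1 and Rag2 had none. None of the 5 later thymocyte, 6 B cell, 5 myeloid, 5 erythroid and 5 thymic stroma markers had one in both. Cd68, a myeloid marker, had one in replicate 1 alone.

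Most splicing genes were acetylated. Here acetylated means that both replicates listed a peak no further than 1 kb from an annotated end of the gene (a gene-end peak). Of the 53 members, 35 (66.0%) were acetylated, against 16.8% of all protein-coding genes by the same rule. Replicate 1 had a peak at 38 members (25.1% of all genes) and replicate 2 at 38 members (22.2%). Of the other 18 members, 3 had a peak in replicate 1 alone, 3 in replicate 2 alone, and 12 had none. At each of the 35 acetylated members the peaks of the replicates overlapped within the window. Among all protein-coding genes, 3540 of the 3674 acetylated ones had such an overlap (16.2% of all genes), so it is not particular to the members. A window of 2.5 kb gave 38 members, against 18.9% of all genes.

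The families differed in these counts. Among hnRNP genes 18 of 21 (85.7%) were acetylated, among SR protein genes 8 of 11 (72.7%) and among Snrp genes 6 of 12. Of the Sf3a genes 1 of 3 and of the Sf3b genes 2 of 6 were acetylated (33.3% each), against 16.8% of all protein-coding genes. No test of the difference between families was made, and members of a family are not replicates.

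**Figure D1:**
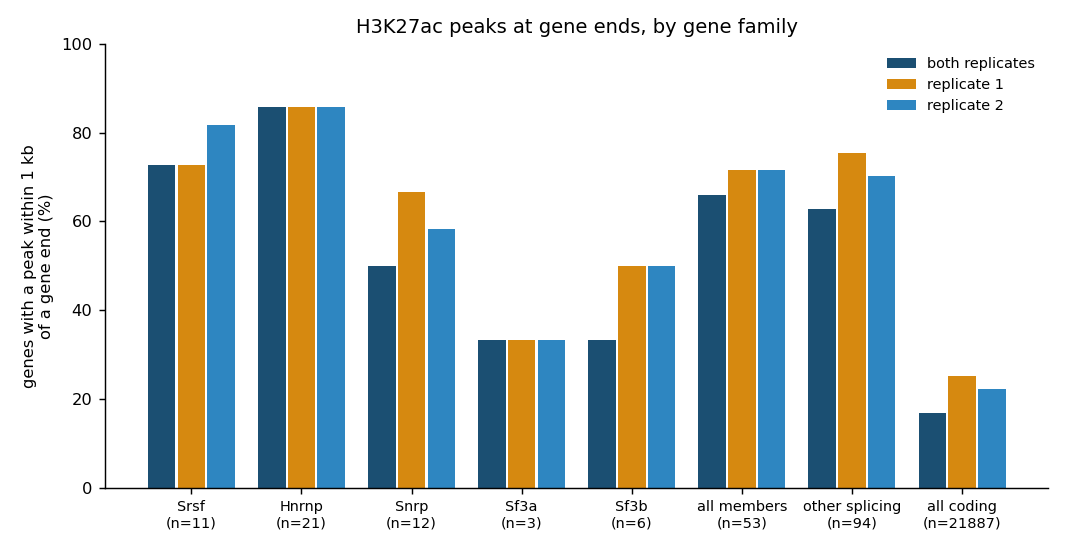
Share of genes with an H3K27ac peak within 1 kb of a gene end (%), in both replicates (dark blue), replicate 1 (orange) and replicate 2 (light blue), by gene family, with all 53 members, the 94 other splicing genes and all protein-coding genes at the right. The Hnrnp bars stand at 85.7% in both replicates and those of all protein-coding genes at 16.8%.

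The listed peaks are mostly weak by the authors' q-value, and this bounds the counts. With q of at most 0.05 required of both replicates, 5 of the 53 members (9.43%) were acetylated, against 2.64% of all protein-coding genes. They were Hnrnpa2b1, Hnrnpf, Hnrnpul2, Snrpg and Srsf3. Replicate 1 had such a peak at 10 members (6.78% of all genes) and replicate 2 at 21 (9.69%). Of the 5 genes, all but Hnrnpul2 lie on chromosomes 6 and 17. Peaks with a fold under 2 but a −log10 p of at least 5 made up 25.5% of replicate 1 and 27.5% of replicate 2 peaks on chromosomes 6, 9, 14 and 17, against 0.35% and 0.546% elsewhere. Without chromosomes 6, 9, 14 and 17, 1 of 44 members passed at this q, against 1.52% of all genes there. With all listed peaks, 27 of those 44 members (61.4%) were acetylated, against 16.9% of all genes there.

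Length gave a second measure. As acetylated length, the bp lying under peaks of both libraries were counted up to 25 kb from each gene end, and the higher of both counts was kept. It can therefore include peaks of neighbouring genes. Its median was 809 bp over the 53 members and 0 bp over all protein-coding genes. Peaks of replicate 1 alone gave the members a median of 1473 bp, and those of replicate 2 alone 1134 bp. At least 1000 bp were covered at 24 members (45.3%), against 8.37% of all genes, and some bp at 40 members (75.5%), against 30.3%. The family medians were 1223 bp for Hnrnp, 1110 bp for Srsf, 321.5 bp for Sf3b, 163 bp for Snrp and 0 bp for Sf3a. These values depended on the requirement of both replicates. With peaks of replicate 1 alone the medians were 1719 bp for Hnrnp, 1420 bp for Srsf, 1161 bp for Sf3b, 388 bp for Snrp and 638 bp for Sf3a. With peaks of replicate 2 alone they were 1636 bp for Hnrnp, 1464 bp for Srsf, 578 bp for Sf3b, 414 bp for Snrp and 0 bp for Sf3a.

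**Figure D2:**
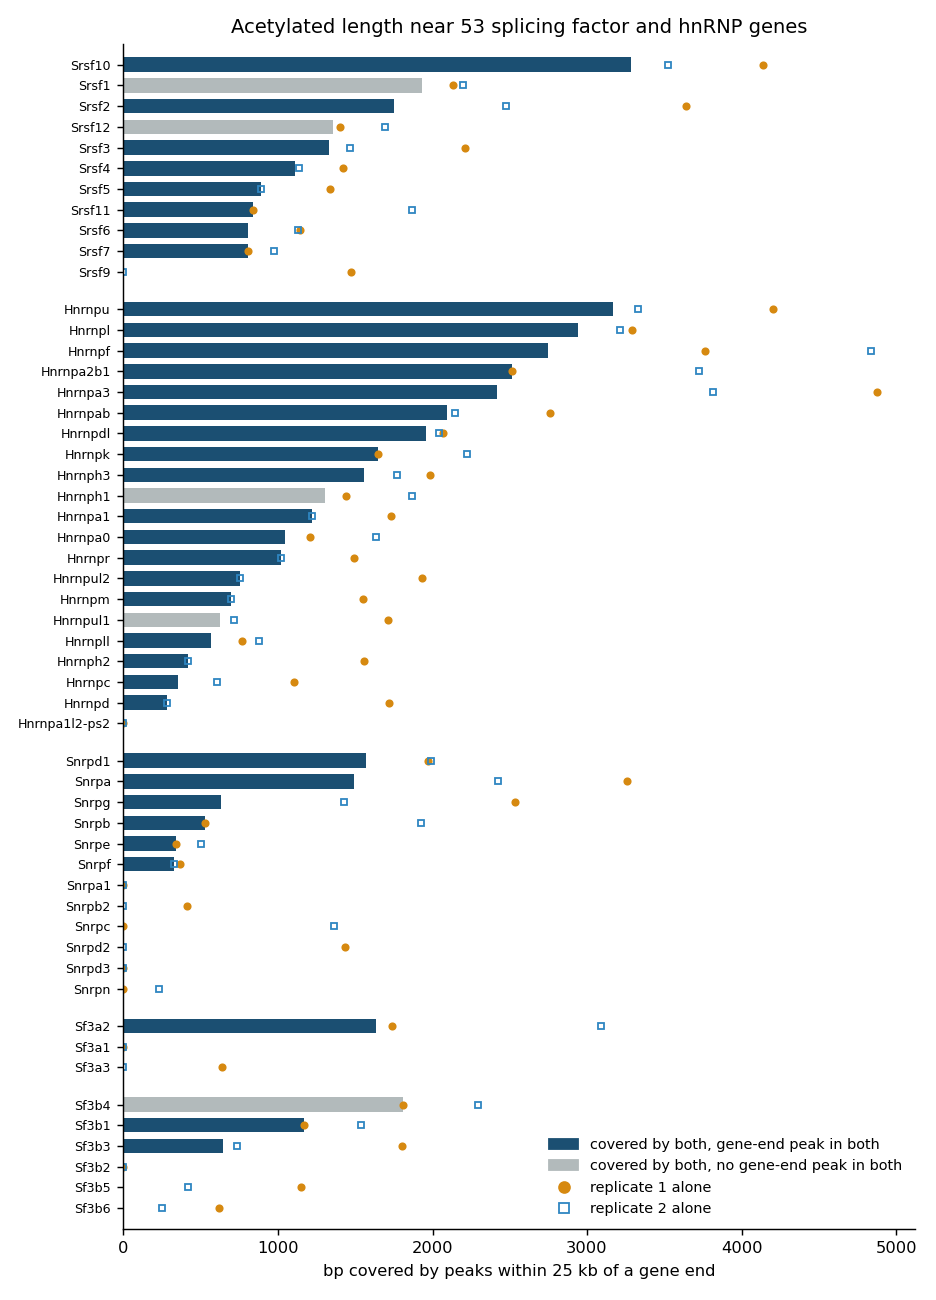
Acetylated length (bp within 25 kb of a gene end) of each of the 53 members, by family. Bars show bp covered by both replicates (blue where both had a gene-end peak, grey where not), circles replicate 1 alone and squares replicate 2 alone. Srsf10 and Hnrnpu have the longest bars, at 3285 and 3170 bp.

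SR protein genes were acetylated in 8 of 11 cases, and those 8 had shared regions of 803 to 2060 bp at their ends. Srsf10, whose protein represses splicing when dephosphorylated, had the greatest acetylated length of all members (3285 bp, rank 95 of the 21887 genes). Its peak was 2160 bp wide with a fold enrichment of 2.03 in replicate 1, and 2278 bp wide with a fold of 2.24 in replicate 2. The 2 peaks shared 2060 bp, from -477 to 1582 bp around the start, so most of the stretch lay inside the gene. A further 1225 bp of its length lay 3347 bp beyond the gene, at an end of Pnrc2.

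Srsf2, which encodes SC35, a component of nuclear speckles, had peaks of 1537 bp (fold 2.47) in replicate 1 and 1713 bp (fold 2.66) in replicate 2. They shared 990 bp, and its 1754 bp of acetylated length included 764 bp at the ends of Jmjd6 and Mettl23. Srsf3, the gene of the smallest SR protein, had peaks of 1474 and 1278 bp. These had small p-values (−log10 p of 11.7 in replicate 1 and 15.2 in replicate 2) at low folds of 1.56 and 1.49. It lies on chromosome 17, among the chromosomes where peaks of low fold and small p-value were frequent.

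Srsf4 (1110 bp shared), Srsf5 (887 bp), Srsf11 (837 bp), Srsf6 (809 bp) and Srsf7 (803 bp) each had a single shared region at the start of the gene, and no other shared bp within 25 kb. All 5 encode SR family proteins with arginine and serine rich tails. The Srsf7 peak was of similar width in the replicates (803 and 974 bp) but of unequal height, with folds of 2.29 in replicate 1 and 4.67 in replicate 2. Like Srsf3, Srsf7 lies on chromosome 17.

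Srsf1, the prototype SR protein gene, missed the call by its distance from the annotated end. Replicate 2 had a peak of 1522 bp (fold 3.16) within the window, and the nearest peak of replicate 1, 1255 bp wide (fold 2.19), began 1043 bp from the gene end. RefSeq lists a start 874 bp inside the annotated gene, and both peaks lay just beyond that start, sharing 1255 bp from 169 to 1423 bp downstream of it. Srsf12, whose human protein antagonises other SR proteins, and Srsf9 had no gene-end peak in replicate 1 or replicate 2. The 1355 bp of acetylated length of Srsf12 lay 13971 bp away at Pnrc1. For Srsf9 the nearest peak was 6612 bp away in replicate 1 and 46684 bp away in replicate 2.

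The hnRNP genes of the A/B type, which encode abundant packaging and splicing proteins, were acetylated in 5 of 6 cases. Hnrnpa2b1 had the widest gene-end peak of any member in replicate 2 (3725 bp, fold 3.02, −log10 q of 6.85), with 2516 bp (fold 3.64, −log10 q of 3.12) in replicate 1. The replicate 1 peak lay wholly within that of replicate 2, from -1544 to 971 bp around the start, within 1 kb of the start of Cbx3, which lies on the other strand. This divergent pair is known in human cells as a chromatin opening element that keeps transgenes active.

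Hnrnpa3 had peaks of 2099 and 1587 bp sharing 1395 bp, and its 2420 bp of acetylated length included 1025 bp in a region 19346 bp away with no annotated gene end. Hnrnpa1 had peaks of 1730 bp (fold 2.76) and 1223 bp (fold 2.09) that shared 1223 bp, in a region within 1 kb of the start of Cbx5. Like Cbx3 next to Hnrnpa2b1, Cbx5 encodes a heterochromatin protein. Hnrnpa0 shared 1045 bp between peaks of 1207 and 1636 bp. Hnrnpab had peaks of 1100 and 729 bp that shared 676 bp. Hnrnpa1l2-ps2, a gene with a pseudogene-like symbol that RefSeq lists as protein-coding, was 582512 bp from the nearest peak of replicate 1 and 84873 bp from that of replicate 2.

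Among the other hnRNP genes, Hnrnpu, whose product binds scaffold-attached DNA and nascent RNA, had peaks of 2542 bp (fold 2.19) and 1683 bp (fold 2.28). The shared region of 1683 bp ran from -414 to 1268 bp around the listed start. Another 1487 bp of its 3170 bp lay beyond the gene, 1425 bp from it, at an end of Cox20. Its relative Hnrnpul2 had peaks of 1933 bp (fold 4.14) and 755 bp (fold 2.59), sharing 755 bp next to Ttc9c. Hnrnpul1 had no gene-end peak, but peaks of 1709 bp (fold 3.13) and 716 bp (fold 2.45) shared 625 bp, from -5 to 619 bp around a start that lies 1509 bp inside the annotated gene.

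Hnrnpl, whose protein binds CA-rich RNA, had the widest shared region of the 35 acetylated members, 2939 bp, with peaks of 2975 bp (fold 2.65) in replicate 1 and 2983 bp (fold 2.29) in replicate 2. The shared region ran from -2500 to 438 bp around the listed start, so it lay mostly upstream of that start. The listed start is 2344 bp inside the annotated gene, so nearly all of the region lay within the gene's annotated ends. Hnrnpll, known from mouse T cells as a factor that promotes skipping of variable exons of CD45, had peaks of 768 bp (fold 1.84, −log10 q of 0.671) and 879 bp (fold 4.2, −log10 q of 6.10). They shared 567 bp, within 1 kb of an end of 4933407O12Rik. The mark at Hnrnpll was thus narrower than at Hnrnpl in both replicates, and its height differed more between replicates. Hnrnpll lies on chromosome 17, among the chromosomes where peaks of low fold and small p-value were frequent, and Hnrnpl on chromosome 7.

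In the F/H type, whose proteins bind runs of G, Hnrnph3 shared 1557 bp between peaks of 1987 and 1769 bp. Hnrnph2 shared 420 bp between peaks of 1559 and 420 bp, in a region within 1 kb of the start of Gla. Hnrnpf had narrow gene-end peaks of 350 bp (fold 7.36, −log10 q of 22.7) in replicate 1 and 390 bp (fold 2.05, −log10 q of 1.5) in replicate 2. The overlap was 217 bp, the narrowest of the acetylated members. A wider shared region of 1064 bp covered another start, 7464 bp inside Hnrnpf, within 1 kb of an end of 4933440N22Rik. Hnrnph1 had no gene-end peak, but peaks of 1442 bp (fold 2.15) and 1869 bp (fold 2.93) shared 1304 bp, from -609 to 694 bp around a start 2540 bp inside the annotated gene.

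Hnrnpdl shared 1961 bp (peaks of 2070 and 2044 bp), and Hnrnpk, a binder of C-rich RNA, shared 1645 bp (peaks of 1645 and 2224 bp, folds 2.16 and 4.48). Hnrnpr shared 1021 bp, Hnrnpm 697 bp, Hnrnpc 351 bp and Hnrnpd 280 bp. The Hnrnpc peak of replicate 2 had a fold of 1.37 with a −log10 p of 10.5, on chromosome 14. At Hnrnpd the peaks were 1719 bp wide in replicate 1 and 280 bp in replicate 2, the widest gap among these 4 genes.

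Snrp genes had narrow shared regions. The 6 shared regions measured 326 to 590 bp (median 383 bp), against a median of 938.5 bp for Srsf, 1033 bp for Hnrnp and 552 bp over the 3540 protein-coding genes with a shared region at an end. No Snrp shared region was as wide as the narrowest Srsf one (803 bp). Of the single peaks, those of replicate 1 were 337 to 590 bp wide (median 480.5 bp over 8), against a median of 760.5 bp for all gene-end peaks. Those of replicate 2 were not narrow, at 326 to 1928 bp (median 738 bp over 7), against 681 bp for all gene-end peaks. Of the 7 Sm proteins, which form the ring around each spliceosomal RNA, 5 were encoded by acetylated genes. Snrpg had peaks of 590 bp (fold 4.52, −log10 q of 10.3) and 1119 bp (fold 3.26, −log10 q of 5.02), and the shared 590 bp lay upstream of the start, from -640 to -51 bp, within 1 kb of an end of Fam136a. Snrpb shared 527 bp (peaks of 527 and 1928 bp), Snrpe 337 bp and Snrpf 326 bp.

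Snrpd1 shared 351 bp, with peaks of 500 bp (fold 2.51, −log10 q of 0.992) and 738 bp (fold 7.62, −log10 q of 14). The replicate 2 peak was the tallest gene-end peak of any member. Of its 1568 bp of acetylated length, 1217 bp lay 7261 bp away at Esco1. The remaining Sm genes were Snrpd2, with a single peak of 461 bp (fold 1.95) in replicate 1, and Snrpd3, with none. Snrpn, the imprinted gene of a neuronal Sm protein, had no gene-end peak and no peak of both replicates within 1 kb of its 4 listed starts.

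Of the proteins of the U1 particle, which recognises the 5′ splice site, Snrpa was acetylated with peaks of 511 bp (fold 2.99) and 1118 bp (fold 2.41) that shared 415 bp. Its 1489 bp of acetylated length included 1074 bp at Egln2 and Rab4b, 19486 bp away. Snrpc had a peak in replicate 2 alone, 700 bp wide with a fold of 1.46 and a −log10 p of 8.92, on chromosome 17. Of the U2 proteins, Snrpb2 had a peak in replicate 1 alone (413 bp, fold 2.25) and Snrpa1 had none.

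The U2 factors Sf3a and Sf3b were acetylated in 3 of 9 cases. Sf3a2 had peaks of 1245 bp (fold 2.39) and 1415 bp (fold 1.97) sharing 1137 bp, within 1 kb of the start of Plekhj1. Sf3a1 and Sf3a3 had no gene-end peak. Sf3b1, whose product contacts the branch site and is often mutated in human myelodysplasia, had peaks of 976 bp (fold 2.07) and 1158 bp (fold 2.26) that shared 976 bp. Sf3b3 had peaks of 1804 and 738 bp sharing 643 bp next to Cog4.

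Sf3b6 had a peak in replicate 1 alone (616 bp, fold 2.28) and Sf3b5 in replicate 2 alone (418 bp, fold 1.4, −log10 p of 5.10). Sf3b2 and Sf3b4 had none. The 1806 bp of acetylated length at Sf3b4 lay 19573 bp away at Bola1, outside the gene.

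Position was read from the RefSeq starts, which are listed for 47 of the 53 members. Hnrnpul2, Hnrnpll, Snrpd1, Snrpb, Sf3b4 and Sf3b5 are not among them. Every gene-end peak of a member with a listed start lay at the 5′ end of the gene, 34 of 34 in replicate 1 and 33 of 33 in replicate 2. In each replicate 26 peaks covered a listed start. The same shares over all genes are not given here, so whether the members differ in this is unknown. Within 1 kb of any listed start, 34 of the 47 members (72.3%) had a peak of both replicates, against 18.2% of the 17492 genes with a listed start. Of the 34 widest shared regions there, 25 covered the start, 8 lay wholly downstream and 1 upstream. Their median edges were at -434.5 and 593.5 bp. Counting a gene end or a listed start, 38 of the 53 members had peaks of both replicates, against 18.3% of all genes. The 3 added by the starts were Hnrnph1, Hnrnpul1 and Srsf1.

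**Figure D3:**
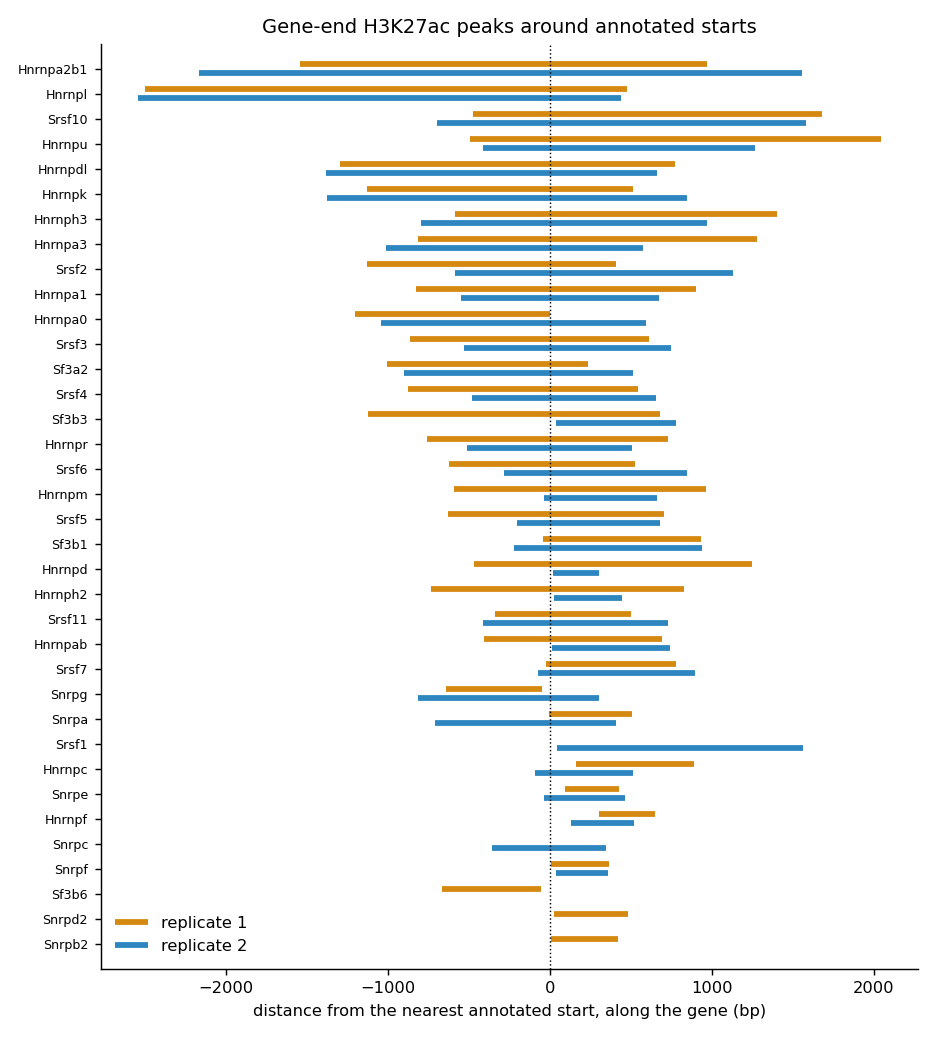
Extent of each gene-end peak relative to the nearest listed start (bp along the gene, dotted line at the start), for members with a listed start, in replicate 1 (orange) and replicate 2 (blue). Hnrnpl reaches furthest upstream, at -2544 bp, while peaks of Snrpf, Snrpb2 and Snrpd2 are short and lie just downstream.

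Many of these regions were shared with a neighbour. Of the 35 shared regions at acetylated members, 22 lay within 1 kb of an end of another annotated gene, and at 18 of the 22 a protein-coding gene was among them. The same share over all genes with a shared region was not counted, so whether the members differ in this is unknown. At 14 of the 35 the start of another protein-coding gene lay within 1 kb, as for Cbx3, Cbx5, Enoph1 next to Hnrnpdl, Rmi1 next to Hnrnpk, Mfsd11 next to Srsf2 and Lrrc40 next to Srsf11. Acetylation of the member and of its neighbour cannot be told apart in these regions. The other 13 regions had no other gene end within 1 kb, among them those of Srsf10, Hnrnpl, Hnrnpu, Sf3b1 and Snrpb.

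Member peaks were wider than gene-end peaks in general and of similar height. Median widths were 1291 bp in replicate 1 and 1125.5 bp in replicate 2 over the 38 peaks of each. Gene-end peaks of all genes had medians of 760.5 bp and 681 bp. Those of genes with a gene-end peak in both replicates, the closer comparison, had medians of 897.5 bp and 765 bp. Median folds were 2.23 and 2.35 for members, against 2.16 and 2.32 for all gene-end peaks. Shared regions at the 35 acetylated members had a median of 837 bp, against 552 bp over all genes with one, and 3 (8.57%) were at least 2000 bp wide, against 2.18%. None of these differences was tested.

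Width was more alike between replicates than height. Across the 35 members, the rank correlation (Spearman's rho) of width was 0.538, with a Pearson's r of 0.626. For fold enrichment rho was -0.109 and r was -0.0836. The points are genes measured in the same 2 libraries, and no p-value applies. Replicate 2 had the higher fold at 20 of them and replicate 1 at 15. The tallest peaks, at Hnrnpf in replicate 1 and Snrpd1 in replicate 2, had folds of 2.05 and 2.51 in the other replicate.

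**Figure D4:**
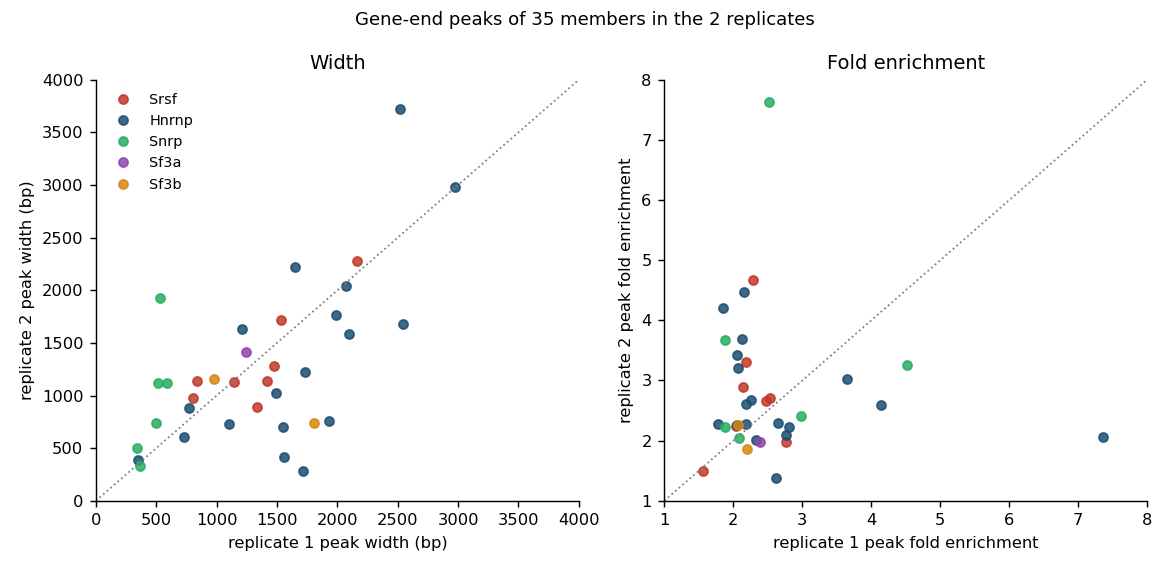
Width in bp (left) and fold enrichment (right) of the gene-end peaks of the 35 acetylated members, replicate 1 on the horizontal and replicate 2 on the vertical axis, coloured by family, with the line of equality dotted. Widths scatter about the line, while the highest folds (7.36 at Hnrnpf, 7.62 at Snrpd1) each belong to a single replicate.

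Promoter sequence was compared over the 47 listed members, at 1 start each. Their CpG ratio (observed over expected) had a median of 0.920, against 0.577 over the 17492 protein-coding promoters, and 43 of them (91.5%) had a ratio of at least 0.6, against 48.4%. Genes with such CpG-rich promoters were acetylated more often in general, 30.5% of 8466. Of the 43 CpG-rich members 30 (69.8%) were acetylated, with no test made. These groups share only a ratio of at least 0.6, and their ratios above that cut were not matched. The 4 members with a lower ratio were Hnrnpa1l2-ps2, Hnrnpf, Snrpa1 and Snrpn, of which Hnrnpf alone was acetylated. Srsf9 (32 CpG in the window), Srsf12 (26), Sf3a1 (24), Sf3b2 (23) and Sf3a3 (22) had ratios of 0.73 to 0.967 and no gene-end peak.

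Of the short motifs, CCGGAA stood in 23 of 47 member promoters (48.9%), against 19.1% of all protein-coding promoters. GGGCGG stood in 32 (68.1%, against 46.3%), CCAAT in 23 (48.9%, against 39.2%) and TATAAA in 7 (14.9%, against 13.3%). TGTGGT stood in 6 (12.8%, against 15.1%) and AAGATGG in 2 (4.26%, against 6.35%). CCGGAA stood in 8 of the 16 members that were not acetylated and in 15 of the 31 that were (48.4%). The 16 include Hnrnph1, Hnrnpul1 and Srsf1, which had peaks of both replicates at a listed start. Among the 11 members with no gene-end peak in either replicate it stood in 4 (36.4%). The words CCGGAA and GGGCGG each contain a CpG, and 91.5% of member promoters were CpG-rich, against 48.4% of all. Member promoters had a median GC content of 60%, against 56.3% for all. The part of base and CpG composition in these shares was not tested. A match describes letters only.

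The wider splicing machinery had similar shares. Of 94 other splicing genes, 59 (62.8%) were acetylated, against the same 16.8%, with a median acetylated length of 681.5 bp. Other particle and core spliceosome genes stood at 28 of 46, led by Phf5a (3692 bp), a partner of SF3B1 in the U2 particle, Sart1 (2565 bp) and Lsm4 (2408 bp). U2af1 and U2af2, which recognise the 3′ splice site, were both acetylated. Other regulators stood at 22 of 35, led by Mbnl1 (3530 bp), Pcbp1 (2330 bp) and Syncrip (2010 bp). These lengths are counted within 25 kb. Within 1 kb of a gene end the shared bp were 865 for Phf5a, 940 for Sart1 and 535 for Lsm4. They were 613 for Mbnl1, 1561 for Pcbp1 and 1680 for Syncrip. The 7 regulators without a gene-end peak in replicate 1 or replicate 2 were Celf2, Esrp1, Esrp2, Mbnl3, Nova1, Nova2 and Rbfox2.

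The kinases that phosphorylate SR proteins were acetylated at Clk1 (1922 bp within 25 kb), Clk4 (1186 bp), Clk3 (1031 bp), Clk2 (1009 bp) and Srpk1 (502 bp). Within 1 kb of a gene end the shared bp were 1000 for Clk1 and 435 for Clk3, and unchanged for Clk4, Clk2 and Srpk1. Srpk2 and Srpk3, the second of them known from muscle, had no gene-end peak, and Tnpo3, the importer of SR proteins, had one in replicate 1 alone. Of the exon junction complex, which marks spliced junctions, 4 of 5 genes were acetylated, led within 25 kb by Eif4a3 (1273 bp) and Magohb (678 bp). Within 1 kb of a gene end the shared bp were 672 for Eif4a3 and 678 for Magohb. Casc3 had a peak in replicate 2 alone and 658 bp within 25 kb.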

How the data were processed

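The 2 H3K27ac libraries were aligned to mm10 (Bowtie2), and MACS 1.4.2 is the peak caller named, per the submitters' processing notes. The 9-column layout is that of MACS2, so the version is uncertain. Peak names in the deposited files point to calls for each sample on reads without duplicates. The peak cutoff and control were not given in the sources used here. For each peak the authors deposited a fold (a ratio), a −log10 p-value, a −log10 q-value and a score, the last being 10 times the −log10 q-value without decimals and not used. They served only to describe and filter peaks. No counts were available, so depth and counting error are unknown.

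Peaks on assembled chromosomes (75 and 55 others left out) were joined to a RefSeq gene table and promoter table of the same build. Coordinates count from 1. Overlap needed 1 bp. The members, gene lists, roles and tests were chosen with earlier results of these data known. Named were the 5 members of greatest acetylated length in families of over 6 genes, all of the smaller families, all members without a peak in both replicates, all with q of at most 0.05 in both, and 3 genes of each other list; further genes were named after their values were seen. No tests were run across genes. Functions were checked on simulated peaks. Computations used Python 3.11.15, numpy 2.4.6, pandas 2.3.3, scipy 1.17.1 and matplotlib 3.10.9.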

Additional observations from a re-analysis of the deposited data

How the results depend on the processing

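Of 83 alternative values, 54 stayed within 1.5 times the reported count, or for length within the SD of the replicate medians (240 bp over all members), and 29 moved. With q of at most 0.05 the median length fell to 0 bp. The acetylated genes fell to 5 members (1 Srsf, 3 Hnrnp, 1 Snrp, 0 Sf3a, 0 Sf3b) and 10 other splicing genes, against 2.64% of all protein-coding genes. With q of at most 1e-05 they were 2 members (1 Srsf, 0 Hnrnp, 1 Snrp, 0 Sf3a, 0 Sf3b) and 5 other splicing genes, with a median of 0 bp, against 0.731% of all protein-coding genes. Leaving out chromosomes 6, 9, 14 and 17 as well, at q of at most 0.05, left 1 of 44 members, against 1.52% of all genes there. This setting was chosen after seeing the data. With a peak in either replicate, Sf3b stood at 4 of 6 genes, against 30.5% of all protein-coding genes, and the median length at 1730 bp. Fewer peaks enter at a stricter q and more with either replicate, by construction.

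Leaving out each replicate in turn gave 38 to 38 members and 66 to 71 other splicing genes, against 22.2% to 25.1% of all genes. By family there were 8 to 9 Srsf, 18 to 18 Hnrnp, 7 to 8 Snrp, 1 to 1 Sf3a and 3 to 3 Sf3b. The median lengths over the members were 1134 to 1473 bp. The family medians, a setting added after seeing the data, were then 1420 to 1464 bp for Srsf, 1636 to 1719 bp for Hnrnp, 388 to 414 bp for Snrp, 0 to 638 bp for Sf3a and 578 to 1161 bp for Sf3b. A window of 2.5 kb gave 38 members, against 18.9% of all genes. The listed starts alone gave 34 of 47, against 18.2% of genes with a listed start. No paired analysis was possible because the samples form a single group and no test was run. The 5′ ends of 6 members are not listed, and depth, which sets how many weak peaks can be called, is unknown.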
